A study of Homo sapiens with 2 samples.

Results

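Tubulin isotype genes encode the alpha and beta chains of microtubules, and 9 of them were followed in WaGa, an established human Merkel cell carcinoma line: TUBA1A, TUBA1B, TUBA1C, TUBB, TUBB2A, TUBB2B, TUBB3, TUBB4B and TUBB6. They were taken by row name, as 9 of the 32742 genes of the deposited table, and TUBB6 and TUBB2B were already known to differ in opposite directions when the genes were chosen. Of the 9, 8 had at least 100 unique molecular identifiers (UMIs, 1 per captured RNA molecule) over both libraries, and the TUBB3 row was at 0 in every cell. Cells were profiled with the 10x Genomics 3′ Chromium chemistry, version 2.0, which tags RNA molecules near their 3′ end.

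The study set WaGa cells given no treatment beside WaGa cells given domatinostat, an inhibitor of the class I enzymes that take acetyl groups off histones, with 1 library each. Both groups were the same line, kept in RPMI medium and growing in suspension. Domatinostat was dissolved in DMSO. The labels gave neither its dose nor the time of exposure, and did not say whether the untreated cells received the solvent. Cells were tied to a group only by the treatment word that ends each cell name, so the libraries are called untreated-labelled and treated-labelled, and their cells untreated and treated cells.

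The untreated-labelled library held 4137 cells and 45562976 UMIs, and the treated-labelled library held 6679 cells and 60160108 UMIs. The median cell had 11125 UMIs in the former and 8578 in the latter, and mitochondrially encoded transcripts took 5.09% and 4.74% of UMIs. All 14 Merkel cell markers looked for were detected in both libraries, KRT20 at 295.5 and 248.0 counts per 1000000 (CPM). Both libraries shared 48 cell barcodes, kept as separate cells. With 1 library per group differences have no check by replicates, and the conditions were not tested against each other. Every interval given is an exact 95% interval (Clopper-Pearson) that covers counting error only.

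Microtubules are hollow polymers of alpha-beta tubulin heterodimers, and they form the mitotic spindle, the tracks for transport and the core of cilia. The human genome holds a family of closely similar isotype genes for each chain, which differ mainly in their tails and in where and when they are expressed. TUBA1B and TUBB are expressed in most dividing cells, TUBA1A, TUBB2A, TUBB2B and TUBB3 are best known from neurons, and TUBB4B is a broadly expressed isotype that is abundant in ciliated cells. Cells also hold tubulin mRNA in check through autoregulation, in which free tubulin above need triggers decay of the mRNAs on ribosomes.

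The upstream sequences of 5 members are shown because their patterns differed most: TUBB4B and TUBA1C, whose levels were highest above G1 in cells called G2/M in the untreated-labelled library, the neighbouring genes TUBB2A and TUBB2B, whose levels differed in opposite directions, and TUBB6, with the lowest ratio. Each is the 250 bases before an annotated start in RefSeq on GRCh38.p14, 5′ to 3′ on the gene's own strand. Capitals mark TTTGAA, the core letters of the cell cycle genes homology region (CHR) found upstream of many G2/M genes, and CCAAT, either of them on either strand (TTCAAA and ATTGG when reversed).
TUBB4B, chr9:137241037-137241286, plus strand: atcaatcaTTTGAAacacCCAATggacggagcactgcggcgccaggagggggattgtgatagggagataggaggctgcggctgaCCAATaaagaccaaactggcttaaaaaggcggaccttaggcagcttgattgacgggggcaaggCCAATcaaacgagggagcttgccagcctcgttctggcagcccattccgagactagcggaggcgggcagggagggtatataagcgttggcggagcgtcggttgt
TUBA1C, chr12:49264832-49265081, plus strand: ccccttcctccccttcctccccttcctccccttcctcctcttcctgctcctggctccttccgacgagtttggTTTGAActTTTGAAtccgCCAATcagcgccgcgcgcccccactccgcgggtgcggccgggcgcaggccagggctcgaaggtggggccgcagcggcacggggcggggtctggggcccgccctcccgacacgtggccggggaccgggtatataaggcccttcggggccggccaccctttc
TUBB2A, chr6:3157545-3157794, minus strand: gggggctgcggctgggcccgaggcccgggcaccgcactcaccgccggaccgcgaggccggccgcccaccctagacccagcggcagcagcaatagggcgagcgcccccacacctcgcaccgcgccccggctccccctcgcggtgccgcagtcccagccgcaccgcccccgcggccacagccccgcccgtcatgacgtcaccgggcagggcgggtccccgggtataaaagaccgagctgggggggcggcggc
TUBB2B, chr6:3227654-3227903, minus strand: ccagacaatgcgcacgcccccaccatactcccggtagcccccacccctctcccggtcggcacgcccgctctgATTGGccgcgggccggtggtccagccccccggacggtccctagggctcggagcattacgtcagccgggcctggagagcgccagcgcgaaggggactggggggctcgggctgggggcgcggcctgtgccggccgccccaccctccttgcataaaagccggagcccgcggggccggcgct
TUBB6, chr18:12307991-12308240, plus strand: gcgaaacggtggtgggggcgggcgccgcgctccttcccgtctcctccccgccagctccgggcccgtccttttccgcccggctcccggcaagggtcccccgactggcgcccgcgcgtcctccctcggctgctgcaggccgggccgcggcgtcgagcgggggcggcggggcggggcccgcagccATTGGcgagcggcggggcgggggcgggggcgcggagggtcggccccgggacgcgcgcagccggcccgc

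In TUBB4B and in the TUBA1C window shown, TTTGAA is followed after 4 bases by CCAAT, on the same strand. It lies 242 to 237 bases before the TUBB4B start, with CCAAT at 232 to 228, and 170 to 165 bases before the TUBA1C start, with CCAAT at 160 to 156. The TUBA1C window holds another TTTGAA at 178 to 173, and the TUBB4B window CCAAT again at 166 to 162 and 103 to 99. All 9 members had an entry in the promoter table, with 14 windows in all. TTTGAA was present in a window of 2 members (TUBB4B and TUBA1C), CCAAT in 7, and GGGCGG, the GC box (CCGCCC when reversed), in 7. Of 35116 windows of the same length, 13.3% hold TTTGAA, 32.0% CCAAT and 42.6% GGGCGG, on either strand and with overlaps allowed. These are shares of single windows, while a member was counted if any of its windows held the letters. The counts therefore cannot be set directly against the shares.

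The arrangement TTTGAANNNNCCAAT, searched for after both sequences had been seen, occurs in 13 of the 35116 windows, or 0.0370%. Beside TUBB4B and TUBA1C, 4 of the others belong to genes of the G2/M list used below for phase calls: CDC20, HJURP, TOP2A and JPT1, which the deposited table names HN1. The rest belong to ARHGAP19, ARHGAP19-SLIT1, ARHGDIB, TLR4, TP53INP2, LOC105372599 and LOC124904484, none of them on that list. The share of list genes among all 35116 windows was not taken, so the count of 4 has no baseline. The match is a description of letters, and no binding was measured. The TUBB2A window holds neither TTTGAA nor CCAAT but 5 GC boxes, while the TUBB2B window holds 1 CCAAT and 1 GC box. The TUBB6 window shown holds 1 CCAAT and 6 GC boxes.

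The first comparison asked how the level of each isotype differed between the libraries. Each level is the member's UMIs divided by all UMIs of the library, in CPM. Since 1 tag stands for 1 molecule whatever its length, levels were not divided by gene length. Several isotypes and their processed pseudogenes are near-identical over the coding part, and how reads that fit more than 1 of them were counted is not given in the sources used here, so the split between isotypes carries that uncertainty.

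Together the 9 genes took 0.803% of all UMIs in the untreated-labelled library and 0.871% in the treated-labelled library. Their summed level was 8029 CPM in the former and 8714 CPM in the latter, a ratio of 1.09 (1.08 to 1.09). Over all cells, the difference lay with the beta genes. The summed beta level was 2664 CPM in the untreated-labelled library and 3315 CPM in the treated-labelled library, a ratio of 1.24 (1.24 to 1.25). The summed alpha level was 5365 and 5399 CPM, a ratio of 1.01 (1.00 to 1.01). There were thus 2.01 alpha UMIs per beta UMI in the untreated-labelled library and 1.63 in the treated-labelled library. In cells of 7000 to 12000 UMIs the alpha genes also stood above 1, with TUBA1A at 1.05, TUBA1B at 1.27 and TUBA1C at 1.42. The difference there did not lie with the beta genes alone.

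Among alpha genes, TUBA1B had the highest level in both libraries, at 3017 CPM in untreated and 3337 CPM in treated cells, a ratio of 1.11 (1.10 to 1.11). TUBA1A, the main alpha chain of developing neurons, had 2139.5 CPM in the untreated-labelled library and 1858 CPM in the treated-labelled library. Its ratio was 0.868 (0.861 to 0.876), on the other side of 1 from TUBA1B. In cells of 7000 to 12000 UMIs the direction turned, with TUBA1A at 1.05 and TUBA1B at 1.27. TUBA1C had 208.2 and 203.9 CPM, with a ratio of 0.979 (0.953 to 1.01) whose interval spans 1. TUBA1B accounted for 56.2% of alpha UMIs in the untreated-labelled library and 61.8% in the treated-labelled library, and TUBA1A for 39.9% and 34.4%. The share of TUBA1C was 3.88% and 3.78%.

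Among beta genes, TUBB, the main isotype of most cultured cells, had the highest level and the highest ratio. It stood at 1724 CPM in the untreated-labelled library and 2243 CPM in the treated-labelled library, a ratio of 1.30 (1.29 to 1.31). TUBB thereby lay below TUBA1A in the untreated-labelled library and above it in the treated-labelled library. TUBB4B had 464.6 and 552.3 CPM, a ratio of 1.19 (1.17 to 1.21), and TUBB2B 436.0 and 495.5 CPM, a ratio of 1.14 (1.12 to 1.16). All 3 were higher in the treated-labelled library, TUBB by the widest margin, and the order of levels among them was the same in both.

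TUBB2A, which lies beside TUBB2B on chromosome 6, differed the other way. Its 1684 UMIs in the untreated-labelled library gave 36.96 CPM and its 1447 UMIs in the treated-labelled library 24.1 CPM, a ratio of 0.651 (0.606 to 0.699). TUBB6, a divergent beta isotype, was rare in both libraries, with 100 UMIs (2.19 CPM) in untreated and 28 UMIs (0.465 CPM) in treated cells. Its ratio of 0.212 (0.134 to 0.325) was the lowest of the 8 measured members. TUBB made up 64.7% of beta UMIs in the untreated-labelled library and 67.7% in the treated-labelled library, TUBB4B 17.4% and 16.7%, and TUBB2B 16.4% and 14.9%. TUBB2A made up 1.39% and 0.726%, and TUBB6 0.0824% and 0.0140%, so the isotypes that were lower in treated cells were minor parts of the beta pool.

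**Figure D1:**
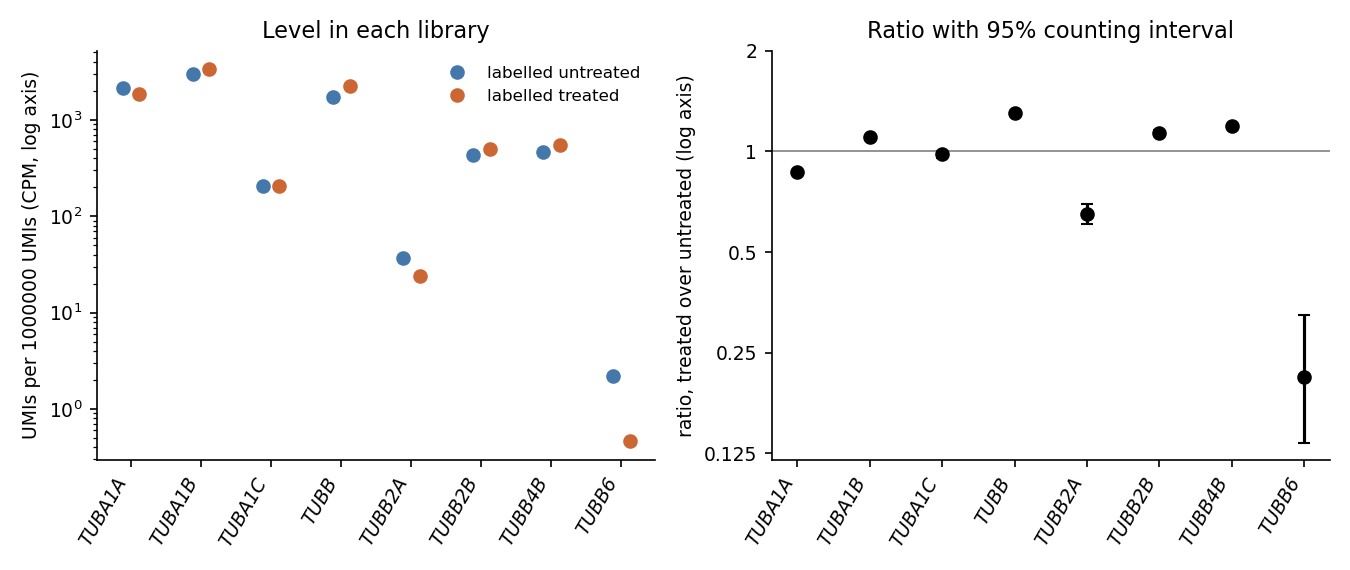
Left, level of each of the 8 measured tubulin genes in each library, in UMIs per 1000000 UMIs on a log axis; right, ratio of treated over untreated on a log axis, with the exact 95% counting interval as bars. TUBB has the highest ratio at 1.30, and TUBB2A and TUBB6 lie lowest at 0.651 and 0.212.

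**Figure D2:**
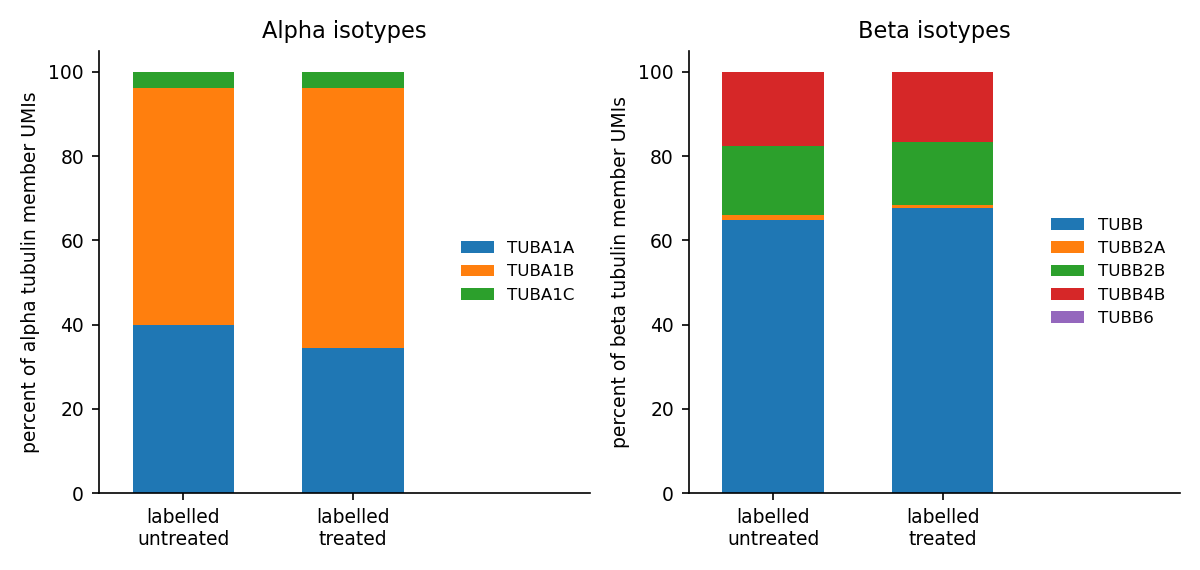
Share of each isotype among the UMIs of the alpha members (left) and of the beta members (right), in percent, in each library. TUBA1B takes 56.2% of alpha UMIs in the untreated-labelled library and 61.8% in the treated-labelled library, and TUBB 64.7% and 67.7% of beta UMIs; the TUBB6 share is too small to be seen.

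TUBB3 is the beta isotype best known as a marker of neurons. The row named TUBB3 held 0 UMIs in both libraries, which allows up to 0.0658 CPM in the untreated-labelled library and 0.0499 CPM in the treated-labelled library (3 UMIs). A further row, TUBB3.1, repeats the symbol with a suffix, and the table does not say which gene record either row stands for. It held 149 UMIs (3.27 CPM) in untreated and 347 UMIs (5.77 CPM) in treated cells, a ratio of 1.76 (1.45 to 2.15). TUBB3.1 is not a row named by the rule and is left out of the sums above.

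A ratio of at least 1.5 either way was counted. Of the 8 measured members, 2 (TUBB2A and TUBB6) were at least 1.5-fold lower, where 12.2% of 12812 genes with at least 100 UMIs were. None of the 8 was at least 1.5-fold higher, where 3.17% of the 12812 genes were, and TUBB3.1 would be 1 if its row were counted as TUBB3. In cells of 7000 to 12000 UMIs, TUBB2A stood at 0.788, TUBA1C at 1.42 and TUBB4B at 1.74, so the counts there were 1 lower and 1 higher. Calls depend on abundance: among genes of 10 to under 100 CPM, the range of TUBB2A, 5.15% were at least 1.5-fold lower and 1.97% higher. Among genes at 100 CPM or more, where the other 6 members with at least 500 UMIs lie, the shares were 2.07% and 1.17%. TUBB6 lay below 10 CPM, where no separate share was taken. Both shares of lower genes above 10 CPM lie under the 12.2% of all genes, so the share below 10 CPM must lie over it. At a minimum of 500 UMIs, which TUBB6 misses, 6.37% of 9717 genes were at least 1.5-fold lower. With only 1 UMI needed in each library, 22.9% of 19239 genes were. The median log2 ratio was 0.06 over the 8 members, of which 4 lay above a ratio of 1 and 4 below, and -0.00655 over the 12812 genes.

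Placed among the 12812 genes, TUBB had a ratio above 90.4% of them, TUBB4B above 80.8%, TUBB2B above 74.1% and TUBA1B above 69.6%. TUBA1C lay above 47.2%, TUBA1A above 29.6%, TUBB2A above 11.3% and TUBB6 above 0.960%. The members therefore spread over most of the range of all genes. TUBB6 was lower, and so were several markers of other cell types. The 7 fibroblast markers summed to 36.5 CPM in the untreated-labelled library and 20.2 CPM in the treated-labelled library, with 3 of the 7 measured, all 3 lower, and COL3A1 at 0 in both. The 5 melanocyte markers summed to 4.70 and 0.981 CPM (1 measured, lower; TYR at 0 in both), and the 7 blood cell markers to 7.20 and 2.41 CPM (2 measured, both lower; PTPRC at 0 in both). The 7 keratinocyte markers summed to 403.5 and 358.9 CPM, with 2 of 3 measured lower and TP63 at 0 in both. The endothelial markers summed to 6.56 and 6.60 CPM, with 1 measured and CDH5 and KDR at 0 in both. Every measured marker that was lower here was at least 1.5-fold lower, as were 12.2% of the 12812 genes. That share was higher among genes of lower level. The part of these markers in the TUBB6 result was not tested.

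The next comparison asked how many cells held each isotype. Each cell was thinned at random to 4351 UMIs so that depth was equal, which left out 245 shallower untreated cells and 667 treated cells and kept 3892 and 6012. At that depth TUBA1B was seen in 99.3% of untreated cells and 99.9% of treated cells, TUBB in 98.2% and 99.5%, and TUBA1A in 97.6% and 98.8%. Nearly every cell therefore held the main alpha and beta genes. TUBB4B was seen in 67.6% and 81.1% of thinned cells, against 83.1% and 88.5% unthinned. TUBB2B was seen in 78.9% and 82.95%, against 91.8% and 92.3% unthinned, and TUBA1C in 43.2% and 46.99%, against 65.1% and 62.0% unthinned. TUBB2A was seen in fewer treated cells, 14.5% of untreated cells and 9.15% of treated cells, against 30.0% and 18.0% unthinned. TUBB6 was seen in 97 of the 4137 untreated and 28 of the 6679 treated cells unthinned, or 2.34% and 0.419%, and in 0.874% and 0.183% after thinning. With 1 cell line there is no cell type that should lack these genes, so how many of these UMIs came from RNA loose in the droplets is not known.

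The libraries differed in TUBB4B mainly at the low end of its distribution. Thinned cells without a TUBB4B UMI made up 32.4% of the untreated-labelled library and 18.9% of the treated-labelled library. Cells with 3 TUBB4B UMIs made up 9.48% and 14.3%, while cells with 8 or more made up 3.29% and 2.89%. Treated cells were thus fewer at 0 UMIs, and about as frequent at the high end. The Fano factor (variance over mean of thinned UMIs per cell) was 2.65 for TUBB4B in the untreated-labelled library, above 98.2% of genes of like mean, and 2.01 in the treated-labelled library, above 96.4%. TUBB2B showed a smaller shift, with 21.1% of untreated cells and 17.0% of treated cells at 0 UMIs. Its Fano factor was 1.43 and 1.34.

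**Figure D3:**
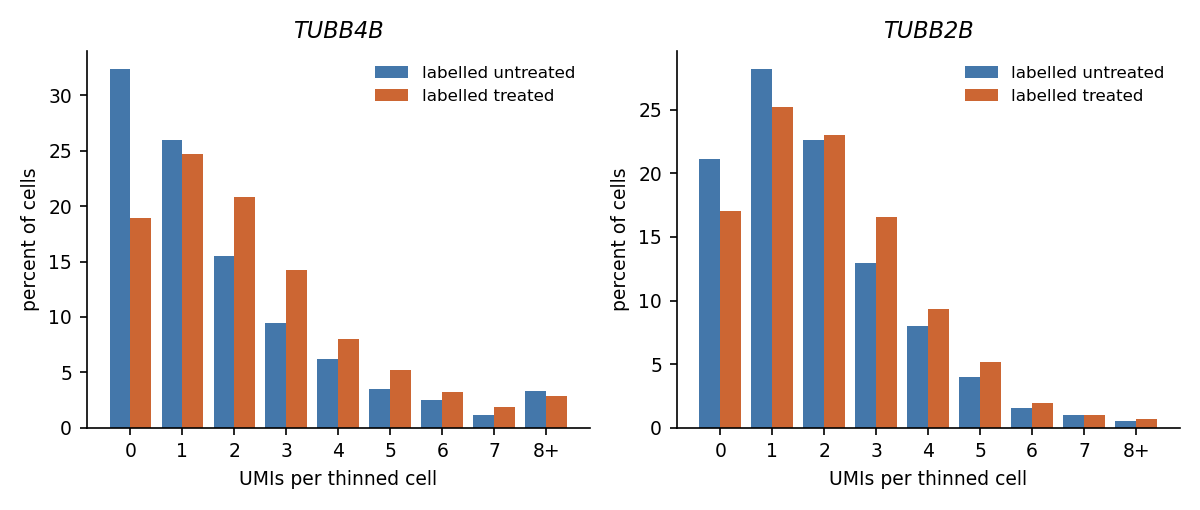
Percent of cells (y) with each number of TUBB4B (left) or TUBB2B (right) UMIs after thinning to 4351 UMIs per cell (x), in 3892 untreated cells and 6012 treated cells. Cells at 0 TUBB4B UMIs make up 32.4% of untreated and 18.9% of treated cells, while cells with 8 or more stand at 3.29% and 2.89%.

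TUBA1A had the highest Fano factor of the members in the untreated-labelled library, 4.62, and lay below TUBA1B in the treated-labelled library, at 2.97. A single untreated cell held 152 TUBA1A UMIs among 4531 UMIs, or 3.35% of its total, and the next by share held 44 among 2512. Without that cell, an alternative chosen after seeing the data, the untreated Fano factor was 4.05. For TUBA1B it was 3.57 and 3.33, for TUBB 2.35 and 2.32, and for TUBA1C 1.87 and 1.63, the last above 97.6% and 97.5% of genes of like mean. TUBB2A, at 1.07 and 1.05, and TUBB6, at 0.992 and 0.998, were close to the value of 1 that counting alone gives. TUBB2A still lay above 87.9% and 92.5% of genes of like mean, and TUBB6 above 35.4% and 43.1%.

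Over a thinned cell, all members together had a median of 31 UMIs in the untreated-labelled library and 35 in the treated-labelled library. The 5th and 95th percentiles were 11 and 63 in untreated and 14 and 64 in treated cells, so the libraries differed at the low end and hardly at the high end. Alpha UMIs had a median of 21 and 22 per cell, and beta UMIs of 10 and 13. Across cells, the summed alpha and summed beta levels had a Pearson r of 0.554 in the untreated-labelled library and 0.615 in the treated-labelled library, on the natural log of 1 plus thinned UMIs. The cells share a library and a depth, so these correlations are descriptions.

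The third comparison asked how the isotypes varied over the cell cycle, when the spindle is built and taken down. Cells were called G1, S or G2/M from 40 S genes and 53 G2/M genes that include no tubulin gene, with both libraries scored together. Of thinned untreated cells, 9.97% were called G1, 56.4% S and 33.6% G2/M, and of treated cells 6.15%, 48.1% and 45.7%. The calls are ranges of a score. Of untreated cells 6.99%, and of treated cells 8.68%, lay within 0.05 of the limit between S and G2/M, and 12.5% and 9.68% within 0.05 of the limit of G1. Median depth before thinning was 8214 UMIs in G1 and 13573 in G2/M in untreated cells, and 6870.5 and 10379.5 in treated cells.

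Most isotypes stood higher in cells called G2/M than in cells called G1, in both libraries. TUBA1C showed the widest span, with a G2/M level 7.76 times its G1 level in the untreated-labelled library and 5.21 times in the treated-labelled library. TUBA1B stood at 2.43 and 2.23 times, TUBB2A at 1.82 and 1.96 times, TUBB at 1.72 and 1.78 times and TUBB2B at 1.36 and 1.23 times. Among all genes with enough UMIs, 13.3% of 9228 in the untreated-labelled library and 14.7% of 10019 in the treated-labelled library reached 1.5 times, and the median gene stood at 1.01 in both.

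TUBB4B and TUBA1A spanned a wider range over the phase calls in the untreated-labelled library than in the other. TUBB4B had 191.9 CPM in G1, 246.0 in S and 773.8 in G2/M in the untreated-labelled library. It had 358.4 CPM in G1, 400.4 in S and 675.1 in G2/M in the treated-labelled library. Its G2/M level was thus 4.03 times its G1 level in untreated and 1.88 times in treated cells. TUBA1A had 1439 CPM in G1, 1714 in S and 2766 in G2/M in the untreated-labelled library, and 1463, 1756 and 1925 CPM in the treated-labelled library. Its G2/M level was 1.92 and 1.32 times its G1 level.

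Set against each other within a phase, the ratio of treated to untreated for TUBB4B was 1.87 (1.63 to 2.15) in cells called G1 and 1.63 (1.55 to 1.71) in cells called S. In cells called G2/M it was 0.872 (0.841 to 0.905), on the other side of 1. The TUBA1A ratio was 1.02 in G1 (0.960 to 1.08), 1.02 in S (1.00 to 1.05) and 0.696 (0.682 to 0.710) in G2/M. The TUBA1A level was thus lower in treated cells among those called G2/M, and close to level among those called G1 or S. TUBA1C had ratios of 1.18 (0.864 to 1.60), 1.06 (0.974 to 1.16) and 0.790 (0.748 to 0.834). Whether the ratios differ between phases was not tested, since no replicate libraries exist.

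With both libraries scored together, TUBB, TUBA1B and TUBB2A kept closer to a single ratio across the phases. TUBB stood at 1.25 (1.17 to 1.33) in G1, 1.23 (1.21 to 1.26) in S and 1.28 (1.26 to 1.31) in G2/M. TUBA1B stood at 1.14, 1.05 and 1.04. TUBB2B varied more, at 1.08 (0.974 to 1.21) in G1, 1.22 (1.17 to 1.27) in S and 0.980 (0.939 to 1.02) in G2/M. TUBB2A was lower in treated cells in each phase, at 0.495 (0.295 to 0.810), 0.618 (0.511 to 0.745) and 0.532 (0.457 to 0.620). TUBB6 was too rare to divide: thinned cells held 6 untreated and 0 treated UMIs in G1, 21 and 4 in S, and 7 and 7 in G2/M. The alpha genes together had ratios of 1.08, 1.04 and 0.892, and the beta genes 1.26, 1.27 and 1.12. Alpha UMIs per beta UMI were more in each later phase in both libraries, from 1.76 in G1 to 1.94 in S and 2.11 in G2/M in untreated cells and from 1.51 to 1.59 and 1.67 in treated cells.

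**Figure D4:**
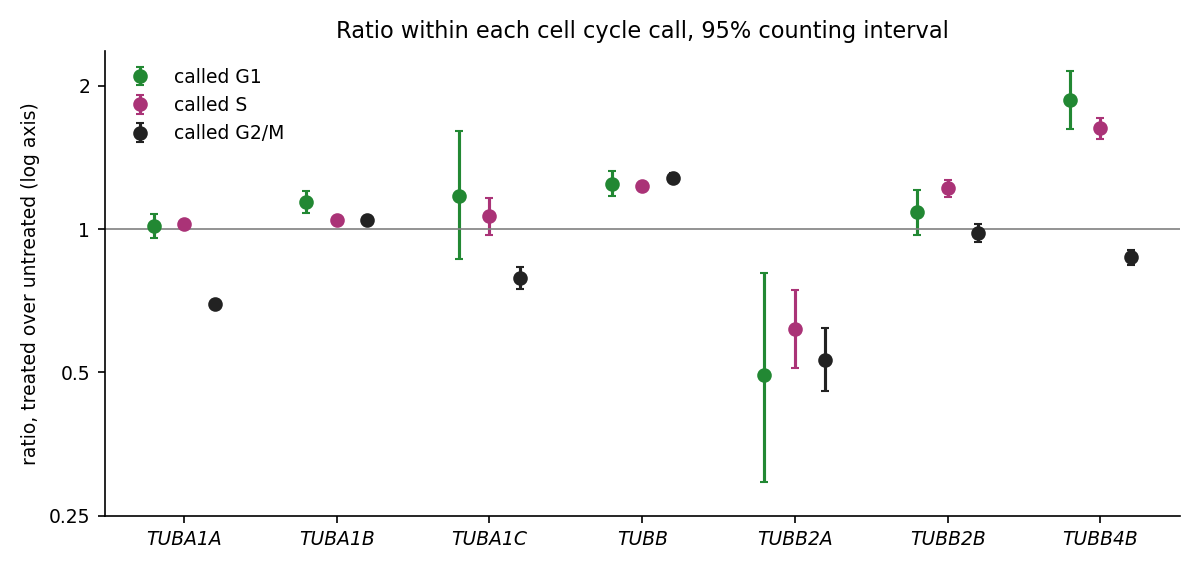
Ratio of treated to untreated level (log axis) of each tubulin gene with enough UMIs within cells called G1, S and G2/M, both libraries scored together. Bars are exact 95% counting intervals. TUBB lies between 1.23 and 1.28 in all phases, while TUBB4B lies at 1.87 in G1 and 0.872 in G2/M, and TUBA1A at 1.02 in G1 and 0.696 in G2/M.

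Since a phase call spans a range of scores and treated cells were more often called G2/M, the cells of both libraries were also divided into 10 groups of near-equal size along the joint G2/M score, from the lowest in group 1 to the highest in group 10. These groups were added after the data had been seen. Group 1 held 550 untreated and 441 treated cells, and group 10 held 330 and 661. TUBB4B had 236.1 CPM in untreated and 395.6 CPM in treated cells of group 1, a ratio of 1.68 (1.501 to 1.87), and a ratio of 1.87 in group 2. In group 7 its levels met, at 534.6 and 540.6 CPM. In group 9 it had 880.7 and 673.2 CPM, a ratio of 0.764 (0.712 to 0.821), and in group 10 1154 and 1033 CPM, a ratio of 0.895 (0.843 to 0.951).

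TUBA1A crossed earlier. It had 1571 and 1839 CPM in group 1, a ratio of 1.17, stood at 0.987 in group 5 and was 0.636 (0.612 to 0.662) in group 9. In untreated cells it stood at 1641 CPM in group 5 and reached 3229 CPM in group 10, while treated cells went from 1619 to 2321 CPM. TUBA1C had a ratio of 1.21 (0.957 to 1.54) in group 1, 0.743 in group 9 and 0.855 in group 10. TUBB2B had a ratio of 1.22 (1.11 to 1.34) in group 1, 0.908 (0.835 to 0.989) in group 9 and 1.04 in group 10. TUBB stayed between 1.19 and 1.31 over the 10 groups, and TUBA1B between 0.953 and 1.11. Along this joint score, the ratio was thus near level for TUBB and TUBA1B. It was lower toward the upper end for TUBB4B, TUBA1A, TUBA1C and TUBB2B. Of the 53 genes that make the score, 46 stood above a ratio of 1 themselves. An equal score therefore need not mean an equal point of the cycle.

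**Figure D5:**
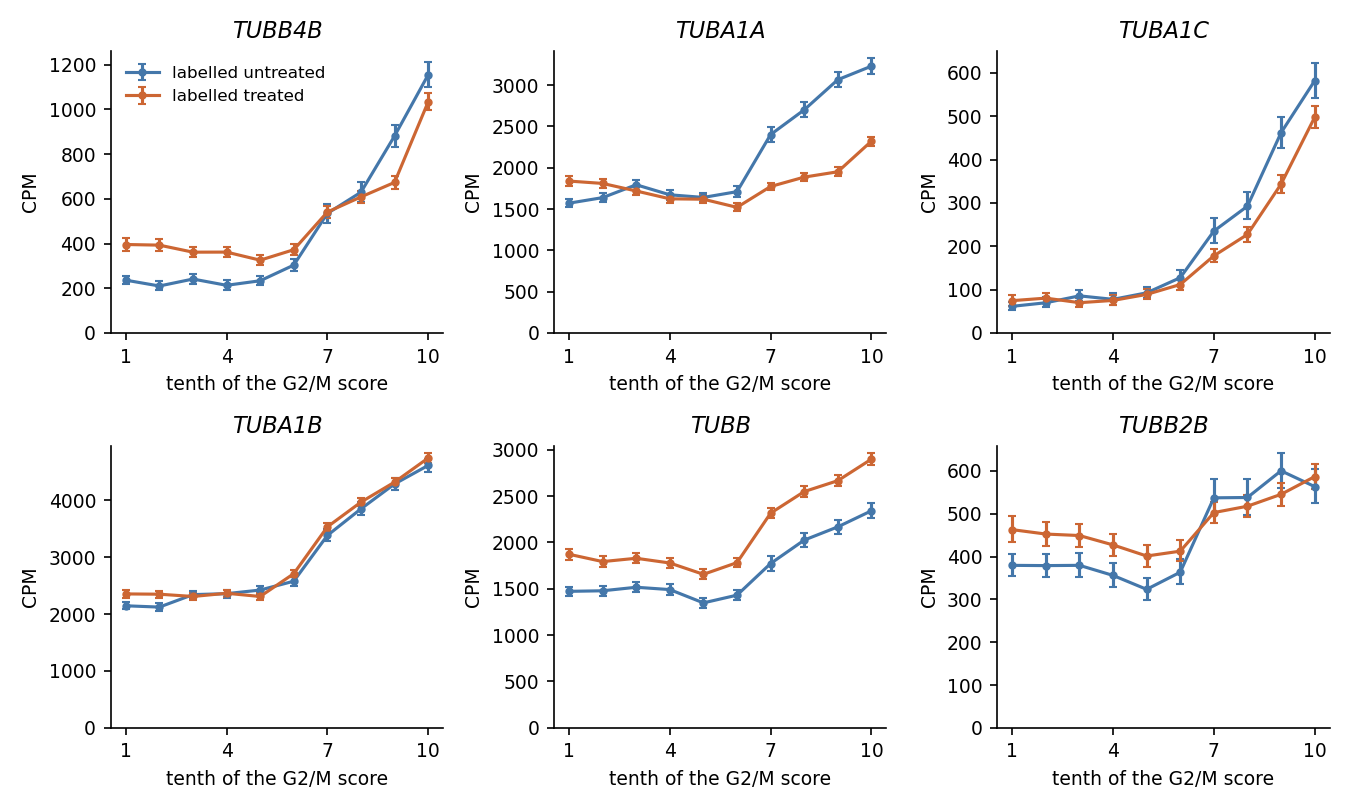
Level (CPM of thinned UMIs, y) of 6 tubulin genes in 10 groups of cells ordered by the G2/M score of both libraries together (x), with exact 95% Poisson intervals as bars. TUBB4B and TUBA1A start higher in treated cells and end lower, with ratios of 1.68 and 1.17 in group 1 and 0.895 and 0.719 in group 10, while TUBB is higher in treated cells throughout.

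With each library scored alone, 30.9% of untreated and 45.3% of treated cells were called G2/M, and the G2/M over G1 level of TUBB4B was 4.13 and 2.04. The TUBB ratio of treated to untreated was then 1.49 (1.38 to 1.60) in G1, 1.24 (1.22 to 1.27) in S and 1.25 (1.22 to 1.28) in G2/M. It was thus less steady than with joint scoring. With 3 equal groups of the G2/M score in each library, TUBB4B stood 3.49 times higher in the top than in the bottom group of untreated cells and 2.06 times higher in treated cells. TUBA1A stood 1.71 and 1.17 times higher in the same comparison. In the top groups the TUBB4B levels were 792.1 and 772.9 CPM, a ratio of 0.976 (0.939 to 1.01). From the bottom to the top group, the ratio was 1.22, 1.37 and 1.31 for TUBB and 1.07, 1.21 and 1.09 for TUBA1B. Neither was level in these groups. TUBB4B (1.65, 1.80 and 0.976), TUBA1C (1.05, 1.40 and 0.919) and TUBB2B (1.18, 1.27 and 1.00) were also highest in the middle group. TUBA1A stood at 1.06, 0.992 and 0.727.

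The genes whose level across cells was most like each isotype were found among 2779 genes with a mean of at least 0.2 UMI per thinned cell, by the lower of both libraries' r on the natural log of 1 plus thinned UMIs. TUBA1A was most like TUBA1B, with an r of 0.494 in untreated and 0.403 in treated cells, followed by TUBB (0.414 and 0.374) and TUBB4B (0.418 and 0.338). TUBB was most like TUBA1B (0.440 and 0.522), TUBA1A and TUBB4B (0.306 and 0.366). TUBB2B was also most like other tubulin genes, but more weakly: TUBA1A (0.292 and 0.272), TUBB (0.247 and 0.205) and TUBB4B (0.228 and 0.189). For 3 of the 6 isotypes frequent enough to rank, every one of the closest 3 genes was therefore another tubulin gene.

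TUBA1B was most like TUBB and then UBE2C (0.432 and 0.489), a ubiquitin-conjugating enzyme of the anaphase-promoting complex, and TOP2A (0.424 and 0.461), a topoisomerase of mitotic chromosomes. TUBA1C was most like UBE2C (0.548 and 0.482), CENPF (0.495 and 0.424), a kinetochore protein, and TOP2A (0.465 and 0.418). TUBB4B was most like UBE2C (0.509 and 0.356), CCNB1 (0.494 and 0.349), the mitotic cyclin B1, and TUBA1B (0.347 and 0.346). Without thinning, UBE2C ranked 7 and CCNB1 4 for TUBB4B, and UBE2C ranked 6 for TUBA1B. The r of TUBB4B with both cycle genes was lower in the treated cells, and its r with TUBA1B was close in both. TUBB2A had an r of at most 0.0965 with another isotype in treated cells and TUBB6 of at most 0.0216 in either library, which at their counts is no finding. UBE2C, CENPF and TOP2A belong to the G2/M list that made the phase calls.

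Other tubulin genes and the genes that act on tubulin were taken as lists. Of all 12812 genes, 12.2% were at least 1.5-fold lower, 3.17% at least 1.5-fold higher and 49.2% above a ratio of 1. Of 13 other tubulins, 6 were measured, none of them 1.5-fold different either way, 3 above and 3 below a ratio of 1, with a median log2 ratio of 0.04. TUBA4A, a further alpha isotype, had 180.6 CPM in untreated and 232.8 CPM in treated cells, a ratio of 1.29 (1.25 to 1.33). With TUBA4A added, the summed alpha level had a ratio of 1.02. TUBB8 stood at 1.12 and TUBE1, the epsilon tubulin of centrioles, at 1.06, while TUBG2, a gamma tubulin, stood at 0.837, TUBD1, the delta tubulin, at 0.918 and TUBG1, the main gamma tubulin, at 0.995.

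New tubulin chains are folded by prefoldin and the chaperonin CCT and joined by tubulin cofactors. All 23 listed genes were measured and none was 1.5-fold different, with 9 above and 14 below a ratio of 1 and a median log2 ratio of -0.07. The prefoldin subunits PFDN4, PFDN5 and VBP1 stood at 1.29, 1.11 and 1.06. At the other end were PDRG1, a prefoldin-like protein, at 0.737, the chaperonin subunit CCT2 at 0.794 and ARL2, a GTPase that acts with the cofactors, at 0.796. Of 5 genes tied to autoregulation of tubulin mRNA, none was 1.5-fold different and 4 lay above a ratio of 1, with a median log2 ratio of 0.23. TTC5, which recognises nascent tubulin chains, stood at 1.21 (1.13 to 1.31), SCAPER, which links it to the mRNA decay machinery, at 1.18, and CNOT11, a subunit of the deadenylase complex, at 1.17. CNOT1, the scaffold of that complex, stood at 1.09 and NACA at 0.998.

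Of 21 genes that modify tubulin, 17 were measured, none 1.5-fold different, 9 above and 8 below a ratio of 1, with a median log2 ratio of 0.01. HDAC6, the cytoplasmic deacetylase of alpha tubulin, had 9.44 CPM in untreated and 13.1 CPM in treated cells, a ratio of 1.39 (1.23 to 1.56). SIRT2, the other tubulin deacetylase on the list, had 154.7 and 103.3 CPM, a ratio of 0.668 (0.646 to 0.691). The deacetylase genes thus differed in opposite directions. TTLL11, a glutamylase, stood at 1.33 and TTL, the tyrosine ligase, at 1.18, while VASH2 and VASH1, which remove the terminal tyrosine, stood at 0.780 and 0.807, the latter with an interval (0.625 to 1.04) that spans 1.

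Of 13 nucleation genes, all were measured, none was 1.5-fold different and 11 lay above a ratio of 1, with a median log2 ratio of 0.26, where 49.2% of all 12812 genes lay above 1. TUBGCP3, TUBGCP5 and TUBGCP6, subunits of the gamma tubulin ring complex, stood at 1.40, 1.39 and 1.37. Below 1 were TUBG2 and TUBG1, and MZT2A stood at 1.02. The 53 G2/M genes used for the calls had a median log2 ratio of 0.31, with 46 above 1, and the share of cells called G2/M was higher in the treated-labelled library. That share rests on the same 53 genes, and its part in the nucleation ratios was not tested.

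Of 26 genes that bind or cap microtubules, 25 were measured, 2 were at least 1.5-fold lower and 0 higher, where 12.2% and 3.17% of all 12812 genes were, with 8 above and 17 below a ratio of 1 and a median log2 ratio of -0.08. The 2 were CAMSAP2, a minus-end binder, at 2.48 and 0.914 CPM (ratio 0.369, 0.262 to 0.513), and DCX, doublecortin of young neurons, at 10.7 and 5.10 CPM (ratio 0.475, 0.411 to 0.550). MAP7 followed at 0.707. Highest were PRC1, which bundles the midzone of the spindle, at 1.35, CKAP5, a microtubule polymerase, at 1.33 and CAMSAP1 at 1.30. Of 13 genes that sever or destabilise microtubules, 10 were measured, with 5 above and 5 below a ratio of 1 and a median log2 ratio of 0.01. SPAST, a severing enzyme, reached 1.5 (1.34 to 1.68), the only measured gene of that list at 1.5-fold, where 3.17% of all 12812 genes were higher. KIF18A, a mitotic kinesin, stood at 1.38. STMN1, the tubulin-binding protein stathmin, was as abundant as the main alpha genes, at 3877 CPM in untreated and 3332 CPM in treated cells, a ratio of 0.859 (0.854 to 0.865). KATNA1 stood at 0.854 and FIGNL1 at 0.862.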

How the data were processed

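The authors deposited 1 table of both samples, on a natural log scale. Per the submitters' processing notes it was made with Cell Ranger and Seurat on hg19; versions, annotation and cell filters are not given in the sources used here. Each deposited natural log value was ln(1 + counts per 10000 counts of the cell). The smallest step in each cell was taken as 1 UMI, and 100% of values above 0 were then whole multiples (relative tolerance 1e-06), with cell totals that agreed in 100% of cells. Cells were assigned by the treatment word in their names, and 0 columns were left over. No cell was filtered and doublets were not called.

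UMIs were summed per library. Ratios have exact intervals (Clopper-Pearson), and a count of 0 allows up to 3 counts. The call of 1.5-fold with at least 100 UMIs was run on counts simulated per gene and library with counting error only. That check cannot speak to spread between cells or between libraries. Phases were called with scanpy 1.11.5 on cells thinned to 4351 UMIs; Fano factors and correlations used the same cells. Promoters came from RefSeq (GRCh38.p14). Alternatives changed the scaling, weighting, cells, minimum, pseudocount, thinning depth and phase groups. Named genes were the members, up to 3 at each end of a list and the 3 most alike genes of each frequent member; KRT20 and the genes named for a promoter motif were picked after their values or sequences were seen. A gene that this rule selects is not reported here. The members and lists were chosen with earlier results of these data known. Python 3.11.15, numpy 2.4.6, scipy 1.17.1, pandas 2.3.3 and matplotlib 3.10.9 were used.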

Additional observations from a re-analysis of the deposited data

Results flagged for a closer look

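In 4 cases the ratio of treated over untreated had a counting interval wholly above 1 in cells called S and wholly below 1 in cells called G2/M. For TUBB4B it was 1.63 in S and 0.872 in G2/M, and for TUBA1A 1.02 and 0.696. For the alpha genes together it was 1.04 and 0.892, and for the 9 genes together 1.12 and 0.966. TUBA1C and TUBB2B also lay above 1 in S and below 1 in G2/M, but with an interval that spans 1 in S for TUBA1C and in G2/M for TUBB2B. The G2/M side depended on how cells were grouped. In the top of the equal groups of the G2/M score within each library, the 9 genes together stood at 1.015 (1.004 to 1.025). TUBB4B stood there at 0.976 (0.939 to 1.01), while TUBA1A, at 0.727, and the alpha genes together, at 0.937, stayed below 1. With phases called in each library alone, the G2/M ratio was 0.940 for the 9 genes together and 0.837 for TUBB4B. With 1 library per group the difference between phases was not tested.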

How the results depend on the processing

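With 1 library per group, no replicate could be left out and all limits cover counting error only. No paired analysis was possible because each group has 1 library and the labels pair nothing. Thinned cells, phase calls of each library alone and the summed TUBB3 rows were alternatives chosen after seeing the data. The summed ratio of 1.09 was 1.09 with median ratio scaling, 1.09 without mitochondrially encoded and ribosomal protein genes in the totals, 1.10 without the deepest 5% of cells, 1.10 in thinned cells, 1.07 as a mean over phase calls and 1.07 with each library called alone. In cells of 7000 to 12000 UMIs it was 1.29, where 19.8% of 1614 untreated and 40.7% of 3219 treated cells were called G2/M. There TUBA1A reversed to 1.05 and TUBA1C to 1.42, and TUBA1C also reversed to 1.02 in thinned cells. The 2 members at least 1.5-fold lower became 1 in the 7000 to 12000 UMI cells (TUBB2A at 0.788), 1 at a minimum of 500 UMIs, which TUBB6 misses, 1 as a mean over phase calls with the libraries called together and 1 with each called alone, where TUBB6 gives no value, and 0 with 0.1 per 10000 added to both levels (TUBB2A 0.725, TUBB6 0.858). The 0 members at least 1.5-fold higher became 1 in the 7000 to 12000 UMI cells (TUBB4B at 1.74) and 1 with the TUBB3 and TUBB3.1 rows summed. Median ratio scaling and leaving out shared barcodes each moved the ratios of all 8 members by less than their intervals. Over the alternatives TUBB lay between 1.25 and 1.498, TUBB2B between 1.09 and 1.31, TUBA1B between 1.08 and 1.27, TUBB4B between 1.18 and 1.74, TUBB2A between 0.507 and 0.788 and TUBB6 between 0.186 and 0.858. Thinned to 2000 UMIs, the share of cells with TUBA1A differed by -0.0637 percentage points, treated minus untreated. Without thinning, 4 correlations with TUBB6 changed sign: TUBA1A in treated cells (0.00728), and TUBA1C (-0.00784), TUBB (-0.00636) and TUBB2B (-0.0135) in untreated cells. Where no construction is named, the cause was not tested. Among the measured members TUBB6 had the fewest UMIs, 100 and 28.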
